A study of Rattus norvegicus with 6 samples.

Results

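The miR-30 family is a group of microRNAs, which are small RNAs that pair with messenger RNAs through the seed, bases 2 to 8 of the mature strand, and lower their translation or stability. The rule used here set the names rno-miR-30a-5p, miR-30a-3p, miR-30b-5p, miR-30c-5p, miR-30d-5p, miR-30d-3p, miR-30e-5p and miR-30e-3p. Of these 8 members, 7 were analysed among the 753 mature miRNAs in the count table, and rno-miR-30b-5p was not analysed here. Small RNA of the lumbar enlargement of the spinal cord was sequenced on day 14 from 3 rats with bone cancer pain (BCP) and 3 sham-operated rats, with 1 library per rat. The BCP rats had received living Walker 256 carcinoma cells, a rat mammary tumor line, in the marrow cavity of the left tibia, and the sham-operated rats had received heat-killed cells at the same site. All rats were female and had the same surgery under isoflurane, and no transgene or other allele is named for either group. The labels give the strain as Wistar and the methods as Sprague Dawley, and the cord was taken from the injected side without the meninges. The model uses cells passed through the ascites of other rats, and the tissue is a mixture of neurons, glia and vessels, so fewer cells of a type and less RNA per cell cannot be told apart.

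Each miR-30 precursor is a hairpin that is cut into a 5p strand and a 3p strand, and in this family the 5p strand is generally regarded as the guide strand that is loaded into Argonaute. The family is conserved across vertebrates and widely expressed, and it is known for repressing regulators of cell plasticity and autophagy, such as Snai1 and Becn1. The name miR-30c covers a single 5p strand made from 2 precursors, miR-30c-1 and miR-30c-2, whose 3p strands differ and have separate names. The miR-30 genes lie in 3 pairs, miR-30a with miR-30c-2, miR-30e with miR-30c-1, and miR-30b with miR-30d.

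The mature sequences are shown because the 5p strands share their seed and miR-30a-5p and miR-30e-5p are nearly identical, which bears on how their read counts can be told apart. They were taken from RefSeq (rat assembly GRCr8), and the capitals mark the seed. Of the 9 mature forms counted for these precursors, the 7 members and the 3p strands of miR-30c-1 and miR-30c-2, 6 were matched, and rno-miR-30d-5p, miR-30d-3p and miR-30e-3p are given by name only.
rno-miR-30a-5p: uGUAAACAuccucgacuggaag
rno-miR-30e-5p: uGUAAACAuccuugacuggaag
rno-miR-30c-5p: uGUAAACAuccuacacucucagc
rno-miR-384-5p: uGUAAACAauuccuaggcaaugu
rno-miR-30a-3p: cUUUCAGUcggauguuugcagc
rno-miR-30c-1-3p: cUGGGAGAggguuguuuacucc
rno-miR-30c-2-3p: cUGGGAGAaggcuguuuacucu
The seed GUAAACA was found in 4 of the 688 listed miRNAs with a RefSeq sequence, which were miR-30a-5p, miR-30c-5p, miR-30e-5p and miR-384-5p. The last of these is not a member by name and differs from miR-30a-5p at 10 of the 22 bases compared. With positions counted from 1 at the 5′ end and the base of miR-30a-5p given first, miR-30a-5p and miR-30e-5p differ by C13U alone, so 21 of their 22 bases are identical. Between miR-30a-5p and miR-30c-5p, 17 of the 22 bases compared are identical, and miR-30c-5p is longer, with 23 bases. The matched 3p strands fall into other seed groups. The 3p strands of miR-30c-1 and miR-30c-2 share the seed UGGGAGA and differ at 3 of 22 bases, whereas miR-30a-3p has the seed UUUCAGU. How reads that match more than one of these strands were assigned is not given in the sources used here, so the levels of miR-30a-5p and miR-30e-5p are uncertain to that extent. The strands given by name only, miR-30d-5p, miR-30d-3p and miR-30e-3p, were not compared by sequence. Whether their levels are uncertain in the same way was therefore not examined.

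In GRCr8 the miR-30a hairpin lies at chr9:33233941-33234011 and the miR-30c-2 hairpin at chr9:33253682-33253765, both on the plus strand, with 0 annotated genes between them and none spanning both. The miR-30e hairpin lies at chr5:139637450-139637541 and the miR-30c-1 hairpin at chr5:139634455-139634543, both on the minus strand and within the protein-coding gene Nfyc, which encodes a subunit of a transcription factor that binds CCAAT boxes. Mir30b and Mir30d are neighbours on another chromosome, within the long non-coding RNA gene LOC102551574 and with 0 annotated genes between them. The hairpin of miR-384 lies at chrX:74490889-74490971 on the minus strand.

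The libraries held between 13464349 and 23770677 counts, and 459 miRNAs passed the filter on low counts, all 7 members among them. Levels are given as CPM, the count relative to the library total, after TMM normalization, which rescales each library by a trimmed mean of its ratios to a reference library. One read stands for a whole mature strand, so no scaling by length was applied. Levels set between different strands compare their reads and not measured molecule numbers. The 5 neuronal marker miRNAs summed to between 121380 and 136697 CPM and all 3 oligodendrocyte markers had counts in every library, while the erythroid markers miR-451-5p and miR-144-3p and both arms of the leukocyte miRNA miR-142 were listed at 0. The myeloid list, 2 of 4 with counts, summed to between 273 and 323 CPM in the BCP rats and between 25.7 and 27.8 in the sham-operated rats, and the epithelial list, 3 of 4 with counts in every library, to between 13.1 and 15.4 against between 5.88 and 7.89. Skeletal muscle markers, 3 of 3 with counts, summed to between 82.7 and 106 CPM over all libraries, and the liver marker miR-122-5p had between 3.08 and 11.2 CPM.

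The 7 members made up between 3.08% and 3.77% of all listed counts, and a single strand carried most of that. The guide strand miR-30c-5p took between 64.3% and 69.2% of the counts of these 7 members, and miR-30d-5p took between 19.2% and 24.0%. The guide strand miR-30a-5p took between 4.30% and 5.95%. These shares and the sums below leave out miR-30b-5p. Ranked by mean level among the 753 listed miRNAs, miR-30c-5p was at place 11, miR-30d-5p at 31, miR-30a-5p at 58, miR-30e-3p at 72, miR-30a-3p at 80, miR-30e-5p at 199 and miR-30d-3p at 327. The place of miR-30e-5p stood far below that of its 3p partner, and the reverse held for miR-30d.

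**Figure D1:**
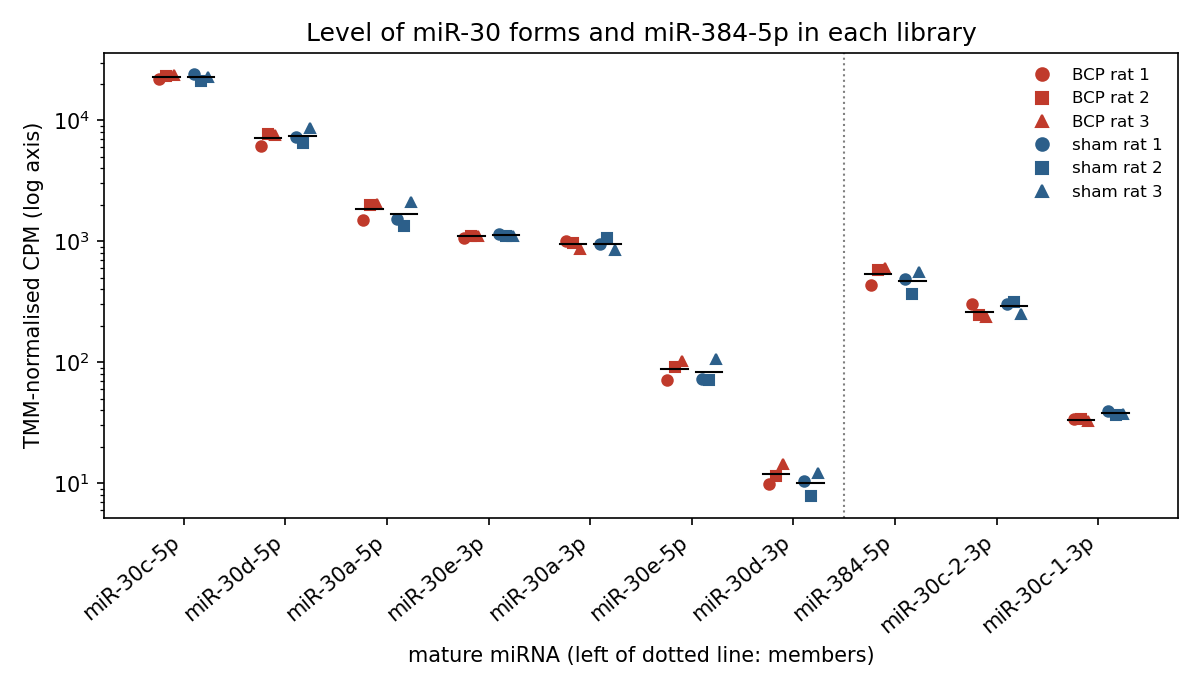
TMM-normalised CPM on a log axis for the 7 members, left of the dotted line, and for miR-384-5p and the miR-30c 3p strands. Points are rats, with red for BCP and blue for sham-operated, and black bars are group means of 3 rats. The members run from miR-30c-5p, with a mean of 22801 CPM, to miR-30d-3p, with 11.0, while the groups lie close together for each.

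The order of the 7 members was the same in every library. Each member was compared with the next lower one by the ratio of their counts within a library. In all 6 comparisons the higher member was higher in 6 of 6 libraries, which is given as a description, because the order was read from these libraries. The narrowest step was from miR-30e-3p to miR-30a-3p, with a mean ratio of 1.17 and a range from 1.05 to 1.30. The step from miR-30a-5p to miR-30e-3p had a mean ratio of 1.56, with a range from 1.21 to 1.93. For both of these steps the highest and the lowest ratio lay further apart, as a fold, than the members did on average, and miR-30e-3p and miR-30a-3p were nearly level in sham-operated rat 2. The widest step, from miR-30a-3p to miR-30e-5p, had a mean ratio of 11.2, and the other steps had mean ratios between 3.15 and 7.86.

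Whether the level of the 7 members differed between BCP and sham-operated rats was examined first for their sum. The share of listed counts came to 3.14% for BCP rat 1, 3.54% for BCP rat 2 and 3.48% for BCP rat 3, beside 3.40%, 3.08% and 3.77% for sham-operated rats 1, 2 and 3. The highest and the lowest share both came from sham-operated rats. The means were 3.39% ± 0.216 (SD, n = 3) in the BCP group and 3.42% ± 0.348 (SD, n = 3) in the sham-operated group, a difference smaller than either SD (exact two-sided permutation, p = 1, with 0.1 the lowest value possible for this design).

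None of the 7 members was called in the comparison of single miRNAs. A miRNA was called at an adjusted p below 0.05 and an absolute log2 fold change above 0.8 in edgeR's quasi-likelihood test, and 3.49% of all tested miRNAs were. By the adjusted p alone the count of members was 0 as well, beside 3.92% of all tested miRNAs. At an unadjusted p below 0.05 the count of members was also 0, where 13.1% of all tested miRNAs passed. DESeq2, limma-voom and edgeR's likelihood ratio test called 0 members too. The share of all tested miRNAs that these other tests called is not given here, so their counts are a description. The BCP and sham-operated values overlapped for all 7 members, whereas 18.5% of all tested miRNAs did not overlap. The fitted value was above 0 for 4 members and below 0 for 3, with a median log2 fold change of 0.02, beside a median of -0.0034 over all 459. The 95% intervals of all 7 log2 fold changes lay inside 0.8 in either direction.

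The guide strand miR-30c-5p, which held most of the counts of the 7 members, was measured at 21893, 23318 and 23568 CPM in BCP rats 1, 2 and 3, and at 24051, 21011 and 22963 CPM in sham-operated rats 1, 2 and 3. Both extremes came from sham-operated rats, and the SD over the 6 libraries was 4.99% of the mean. Its log2 fold change was 0.02 (standard error 0.0873, 95% interval -0.19 to 0.22, edgeR adjusted p = 0.964). The guide strand miR-30d-5p had 6082, 7628 and 7579 CPM in the BCP rats and 7279, 6498 and 8558 CPM in the sham-operated rats. BCP rat 1 was lowest and sham-operated rat 3 highest, and the log2 fold change was -0.07 (standard error 0.134, 95% interval -0.38 to 0.24, edgeR adjusted p = 0.877).

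The strand miR-30a-5p had 1505, 1988 and 2027 CPM in BCP rats 1, 2 and 3 and 1528, 1338 and 2125 CPM in sham-operated rats 1, 2 and 3. BCP rats 2 and 3 and sham-operated rat 3 were high, and the other 3 rats were low, so each group held both high and low rats. Its log2 fold change was 0.15 (standard error 0.191, 95% interval -0.30 to 0.59, edgeR adjusted p = 0.803). Without sham-operated rat 2 it was 0.0033, and without sham-operated rat 3 it was 0.33. The strand miR-30e-5p, read at lower levels, had 71.8, 92.1 and 102 CPM in the BCP rats and 73.2, 71.2 and 107 CPM in the sham-operated rats. The same 3 rats were high, and its log2 fold change was 0.08 (standard error 0.200, 95% interval -0.38 to 0.54, edgeR adjusted p = 0.916).

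Of the 3p strands, which are usually regarded as passenger strands in this family, miR-30e-3p was the steadiest. It had 1068, 1111 and 1109 CPM in the BCP rats and 1143, 1110.2 and 1100.1 CPM in the sham-operated rats, with an SD of 2.19% of the mean over the 6 libraries. The groups overlapped, and the log2 fold change was -0.03 (standard error 0.0877, 95% interval -0.23 to 0.17, edgeR adjusted p = 0.940), or -0.072 without sham-operated rat 3. The strand miR-30a-3p had 1012, 963 and 864 CPM in the BCP rats and 957, 1061 and 846 CPM in the sham-operated rats. Here BCP rat 3 and sham-operated rat 3 were the lowest, and the log2 fold change was -0.01 (95% interval -0.29 to 0.26). The rarest member, miR-30d-3p, was read 234, 155 and 227 times in BCP rats 1, 2 and 3, against 144, 118 and 180 times in sham-operated rats 1, 2 and 3, so counting error alone reached 9.21% in the lowest library. This corresponded to 9.92, 11.4 and 14.4 CPM against 10.4, 7.76 and 12.0 CPM, which overlapped, with a log2 fold change of 0.24 (95% interval -0.24 to 0.72, edgeR adjusted p = 0.685). Leaving out 1 rat at a time gave values from 0.072, without BCP rat 3, to 0.36, without sham-operated rat 3.

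**Figure D2:**
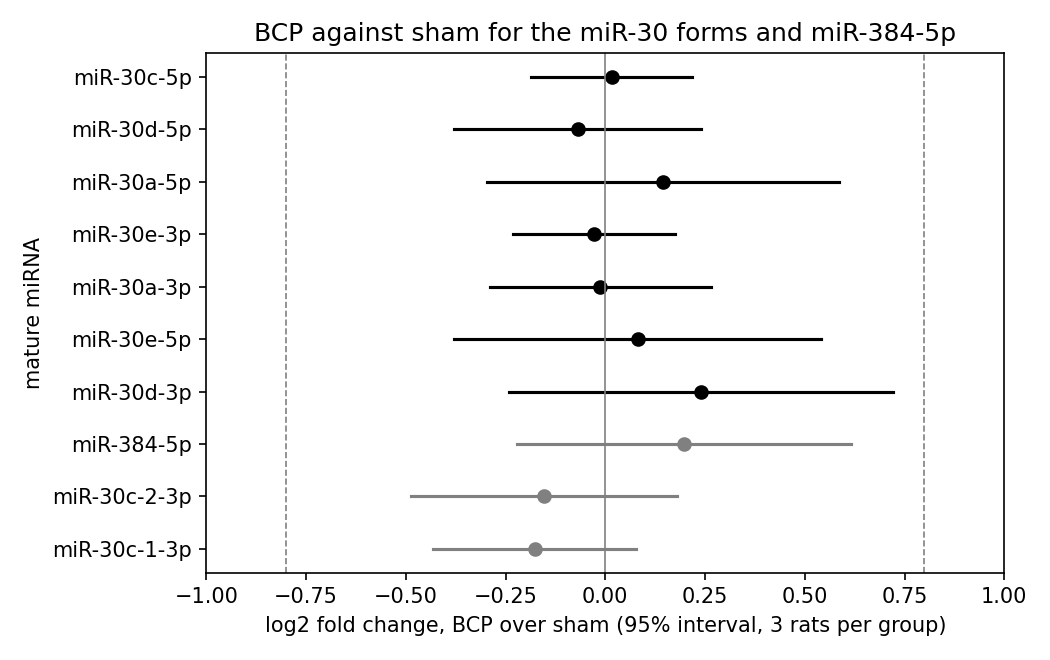
Log2 fold change of BCP over sham-operated rats from edgeR, with 95% intervals, for the 7 members in black and for miR-384-5p and the miR-30c 3p strands in grey. Every interval includes 0 and lies inside the dashed lines at 0.8 in either direction.

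The forms related to the members by precursor or seed gave similar values. The 3p strand of miR-30c-1 had 34.1, 34.0 and 32.4 CPM in the BCP rats and 39.6, 36.6 and 37.4 CPM in the sham-operated rats. Every BCP rat lay below every sham-operated rat, beside 18.5% of all tested miRNAs whose groups did not overlap, and the log2 fold change of -0.18 (standard error 0.110, 95% interval -0.43 to 0.08) did not pass the test (edgeR adjusted p = 0.563). The 3p strand of miR-30c-2 overlapped between the groups, with a log2 fold change of -0.15 (95% interval -0.49 to 0.18, edgeR adjusted p = 0.708). It was -0.28 without BCP rat 1 or without sham-operated rat 3, and -0.098 and -0.092 without BCP rat 3 and sham-operated rat 2. With the same seed as the 5p strands, miR-384-5p had 437, 574 and 599 CPM in the BCP rats and 483, 368 and 552 CPM in the sham-operated rats. These overlapped, with a log2 fold change of 0.20 (95% interval -0.22 to 0.62, edgeR adjusted p = 0.704). It ran from 0.046, without sham-operated rat 2, to 0.31, without BCP rat 1.

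The balance between the 5p and 3p strands differed widely between the 3 precursors for which both arms are members. For miR-30d the 5p strand was far in excess, with between 528 and 837 counts of miR-30d-5p for each count of miR-30d-3p. For miR-30a the arms were close, with a ratio of miR-30a-5p to miR-30a-3p between 1.26 and 2.51. For miR-30e more counts were listed for the 3p strand, and miR-30e-3p exceeded miR-30e-5p between 10.3 and 15.6 times, in 6 of 6 libraries. For miR-30c, whose 5p strand comes from both precursors, the ratio of miR-30c-5p to the sum of both 3p strands lay between 59.5 and 87.1. Among the 137 arm pairs with at least 10 counts of each arm in every library, 76 had more of the 5p strand and 61 more of the 3p strand. Ordered from the highest ratio of 5p to 3p, miR-30d was at place 8, miR-30a at 67 and miR-30e at 108. The ratios and places of miR-30a and miR-30e depend on how reads of miR-30a-5p and miR-30e-5p, 1 base apart, were divided, which is not given in the sources used here. Reads shared with miR-30d-5p, or between the 3p strands, would enter the ratios of all 3 precursors as well. This was not examined, because miR-30d-5p, miR-30d-3p and miR-30e-3p were not matched to a sequence. For the arms of miR-30e to be level, between 46.7% and 77.6% of the counts listed for miR-30a-5p in a library would have to belong to miR-30e-5p. That range takes the counts of miR-30e-3p as listed, and would be lower if some of them belonged to another strand. With the counts of miR-30a and miR-30e pooled in each arm, a choice made after seeing the data, the ratio of 5p to 3p came to 0.758, 1.00 and 1.08 for the BCP group, beside 0.762, 0.649 and 1.15 for the sham-operated group, each in the order of rats 1, 2 and 3. The groups overlapped, and the pooled pair was at place 76 of 136.

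**Figure D3:**
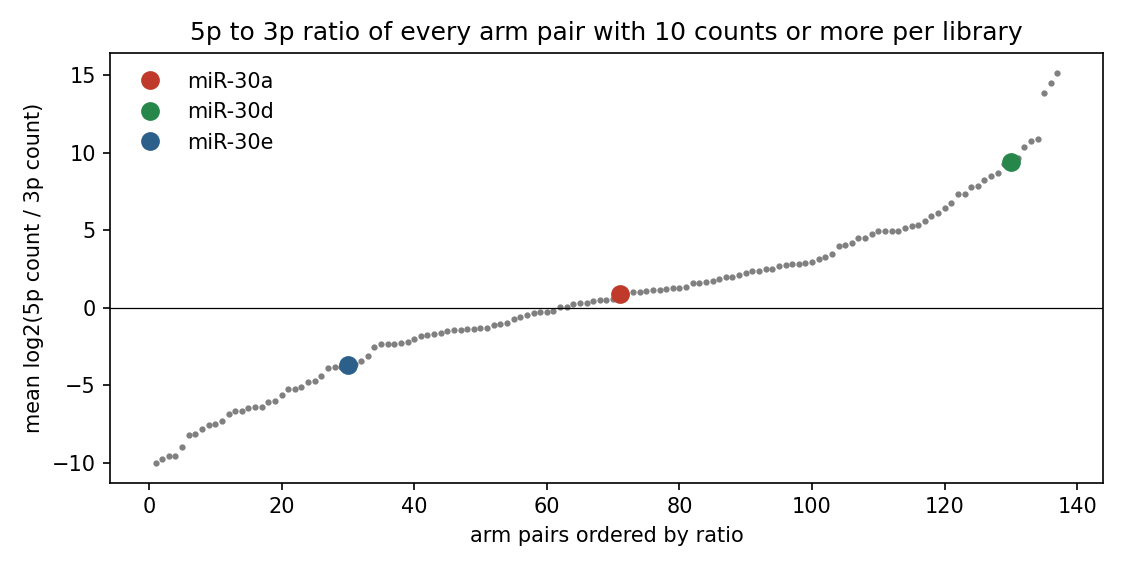
Mean log2 ratio of the 5p to the 3p count over 6 libraries for 137 arm pairs, ordered from lowest to highest. The pair miR-30d stands near the upper end, miR-30a near the middle, and miR-30e among the pairs with more counts listed for the 3p strand.

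The arm ratios were then compared between BCP and sham-operated rats, which needs no normalization because both counts come from a single library. For miR-30d the ratio was 613, 668 and 528 for BCP rats 1, 2 and 3, against 701, 837 and 711 for sham-operated rats 1, 2 and 3. All BCP rats were below all sham-operated rats, with means of 603 ± 70.7 (SD, n = 3) and 750 ± 76.0 (SD, n = 3). Ratios of 13.1% of the 137 arm pairs did not overlap between the groups. The difference was -0.32 on the log2 scale, with an exact permutation p of 0.1, the smallest that 3 rats against 3 allow, and 0.3 after adjustment over the 3 ratios. The ratio rests on the 118 to 234 counts of miR-30d-3p.

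For miR-30a the ratio of 5p to 3p was 1.49, 2.06 and 2.35 for the BCP group, against 1.60, 1.26 and 2.51 for the sham-operated group. The groups overlapped, and the highest and lowest ratios were both in sham-operated rats (two-sided exact permutation test, adjusted p = 0.8). For miR-30e the ratio was 0.0673, 0.0829 and 0.0917 for the BCP group, against 0.0640, 0.0641 and 0.0969 for the sham-operated group. Again sham-operated rat 3 and BCP rats 2 and 3 had the highest values, and the groups overlapped (two-sided exact permutation test, adjusted p = 0.8). The log2 difference for miR-30e ran from 0.021, without sham-operated rat 1, to 0.32, without sham-operated rat 3. The ratios of miR-30a and miR-30e thus varied more within a group than between the groups.

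**Figure D4:**
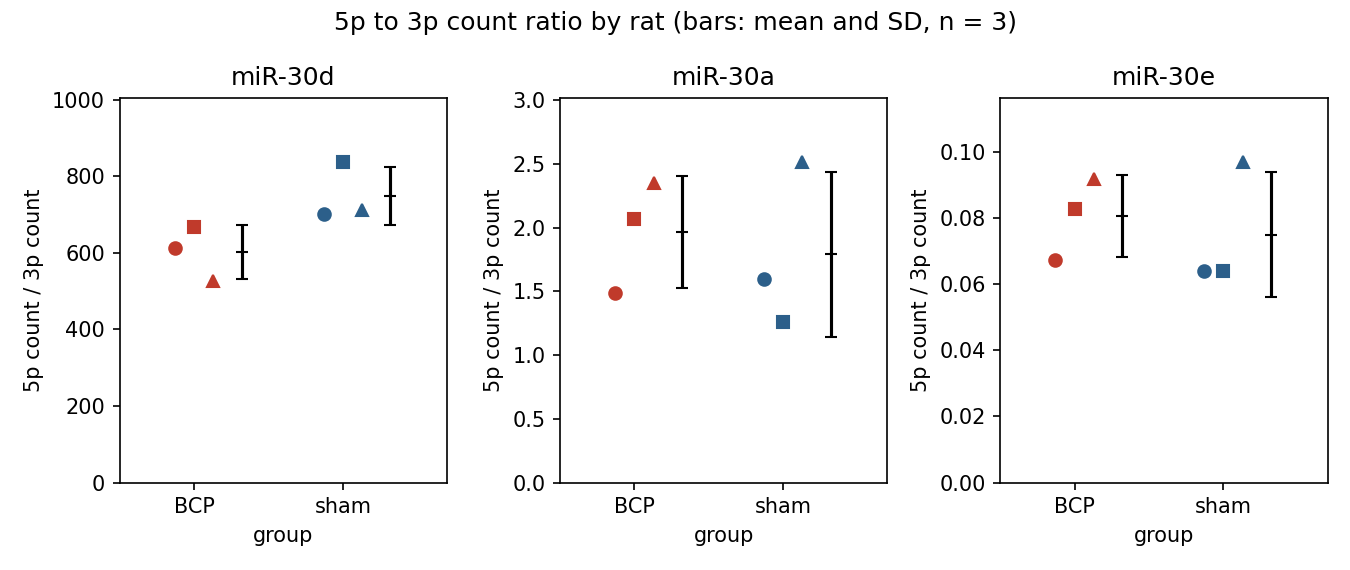
Ratio of the 5p count to the 3p count in each rat, with axes that start at 0, for miR-30d, miR-30a and miR-30e. Circles, squares and triangles are rats 1, 2 and 3, and black bars give the mean and SD of 3 rats. The BCP rats lie below the sham-operated rats for miR-30d, and the groups overlap for miR-30a and miR-30e.

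Strands from a shared gene pair were compared in the same way. In the pair of miR-30a and miR-30c-2, miR-30c-5p exceeded miR-30a-5p by 14.5, 11.7 and 11.6 times in BCP rats 1, 2 and 3 and by 15.7, 15.7 and 10.8 times in sham-operated rats 1, 2 and 3. In the pair of miR-30e and miR-30c-1, miR-30c-5p exceeded miR-30e-5p by 305, 253 and 232 times in the BCP rats and by 329, 295 and 215 times in the sham-operated rats. Neither ratio differed between the groups by more than the rats of a group did (exact two-sided permutation, adjusted p = 0.8 for each over the 2 ratios). Since miR-30c-5p is made from both pairs, its counts cannot be divided between them, and the pair of miR-30b and miR-30d was not analysed here.

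The 3p strands are named by precursor and were set against each other as a description. The sequence of miR-30e-3p was not matched here, so its likeness to miR-30a-3p was not examined. How reads shared by 3p strands were divided is not given either. The 3p strand of miR-30c-2 exceeded that of miR-30c-1 between 6.68 and 8.81 times. Within the miR-30a and miR-30c-2 pair, miR-30a-3p exceeded miR-30c-2-3p between 3.14 and 3.93 times. Within the miR-30e and miR-30c-1 pair, miR-30e-3p exceeded miR-30c-1-3p between 28.9 and 34.2 times. As counted, the 3p strands of miR-30a and miR-30e were almost level, with a ratio of miR-30e-3p to miR-30a-3p between 1.05 and 1.30. Those of their neighbours were not.

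How far strands moved together over the 6 libraries was described by the SD of their log2 ratio, which is 0 for a constant ratio. For miR-30a-5p the SD to miR-30e-5p was 0.0707, the 4th smallest among 457 other miRNAs with counts in every library, whose median was 0.379. The ratio of miR-30a-5p to miR-30e-5p stayed between 18.8 and 21.6, although the levels of the strands alone had SDs of 19.0% and 18.7% of their means. The strand miR-384-5p, which shares the seed but little else of the sequence, stood at place 9 for miR-30a-5p, with an SD of 0.0959. It stood at place 30 for miR-30e-5p, with an SD of 0.144. For miR-30a-5p the other arm of its own precursor, miR-30a-3p, had an SD of 0.396 and stood at place 245, and its cluster partner miR-30c-5p had an SD of 0.242, at place 101. The other arm stood at place 122 both for miR-30e-5p and for miR-30d-5p, with SDs of 0.270 and 0.224. In the 3p strands, miR-30c-1-3p was at place 41 for miR-30e-3p, with an SD of 0.0938, and miR-30c-2-3p was at place 64 for miR-30a-3p, with an SD of 0.112. Across the pairs, miR-30c-2-3p was at place 166 for miR-30e-3p and miR-30c-1-3p at place 141 for miR-30a-3p, while miR-30a-3p was at place 95 for miR-30e-3p, with an SD of 0.135. These values come from 6 libraries of both groups and were not tested. They include any reads counted for the wrong strand, for miR-30a-5p and miR-30e-5p and for any other strands of like sequence.

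**Figure D5:**
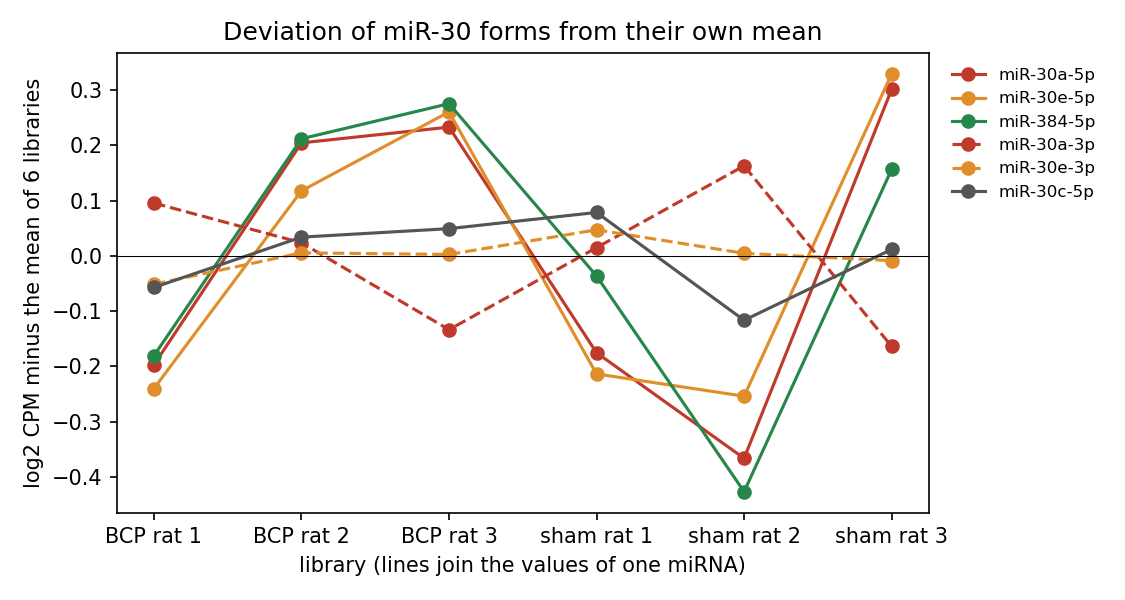
Log2 CPM of 6 strands in each library minus the mean of that strand over the 6 libraries, with solid lines for 5p strands and dashed lines for 3p strands. The lines for miR-30a-5p, miR-30e-5p and miR-384-5p rise in BCP rats 2 and 3 and sham-operated rat 3, that for miR-30a-3p is lowest in sham-operated rat 3 and BCP rat 3, and those for miR-30c-5p and miR-30e-3p stay nearer to 0.

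The rats with high miR-30a-5p and miR-30e-5p were also the highest in 3 of the marker lists and the lowest in the oligodendrocyte list. The endothelial and smooth muscle list, 3 of 3 markers with counts, summed to 21149, 27117 and 30096 CPM in BCP rats 1, 2 and 3 and to 24702, 21282 and 28744 CPM in sham-operated rats 1, 2 and 3. The kidney list of miR-192-5p and miR-194-5p, 2 of 2 with counts, summed to 377, 536 and 528 CPM in the BCP rats and to 392, 347 and 589 CPM in the sham-operated rats. The lumbar HOX list, 3 of 3 with counts, summed to 20832, 22394 and 24310 CPM against 19889, 19291 and 21475 CPM. In these 3 lists the highest 3 libraries were those of BCP rats 2 and 3 and sham-operated rat 3. In the oligodendrocyte list, with 15233, 13542 and 12903 CPM in the BCP rats and 16761, 17265 and 14182 CPM in the sham-operated rats, the same libraries were the lowest. In the neuronal, skeletal muscle, myeloid, epithelial and liver lists these libraries were not the highest 3, and the neuronal sum was lowest in sham-operated rat 3, at 121380 CPM. The part of cell composition in the miR-30 values was not tested.

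Outside the family, the 5 miRNAs whose level over the 6 libraries was most like the sum of the members were miR-29b-3p, with a Pearson correlation of 0.98, miR-218a-5p, with 0.973, miR-450a-5p, with 0.972, miR-873-5p, with 0.951, and miR-24-1-5p, with 0.950, of 448 compared. The sum was lower in BCP rat 1 and sham-operated rat 2, at 31642 and 31097 CPM, than in the other 4 rats, at 35042 to 35711 CPM. Without those 2 libraries the 5 correlations lay between 0.617 and 0.929, over 4 libraries, and they are given as a description. None of the 5 was called between the groups, with log2 fold changes between -0.10 and 0.07. Of other abundant families, 0 of 8 let-7 guide strands, 0 of 5 tested miR-29 strands and 0 of 8 tested miR-181 strands were called, beside 3.49% of all tested miRNAs, and their median log2 fold changes were -0.07, 0.05 and -0.07. At an unadjusted p below 0.05 in edgeR's test, which 13.1% of all tested miRNAs passed, the counts were 0, 1 and 1 in that order. The groups did not overlap for 0, 1 and 2 of these strands, beside 18.5% of all tested miRNAs.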

How the data were processed

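The deposited file holds, as the authors made it, the number of reads (raw counts) for each known mature miRNA, not normalized. The authors filtered the reads with the FASTX Toolkit, mapped clean reads to Rnor_6.0 with Bowtie (Bowtie2 2.2.3 in the submitters' processing notes) and identified known miRNAs by length and miRBase annotation. The number of columns not assigned to a sample was 0. Groups came from the sample titles.

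The whole table was fitted in R 4.3.3 with edgeR 4.0.16 (filterByExpr with a minimum count of 10, TMM, quasi-likelihood test, Benjamini-Hochberg adjustment). Standard errors came from the log2 fold change and the F statistic, and 95% intervals from the total degrees of freedom. Counts between 13464349 and 23770677 per library put 3 counts at 0.126 to 0.223 CPM, a limit that covers counting error only, because PCR copies cannot be recognised. Ratios were tested by exact permutation in scipy 1.17.1. The edgeR script was tested on simulated data. The alternatives were other filters, normalizations and tests (DESeq2 1.42.0, limma 3.58.1), a pseudocount of 0.5, a replicate block and leaving out each rat.

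Named were the members, the other arms of their precursors, miRNAs with their seed, and the 5 most like their sum. The members and lists were chosen with earlier results of these data known. The ratios between 3p strands, the SDs of log2 ratios and the pooling of miR-30a with miR-30e were chosen after the values were seen. Sequences were matched by name to RefSeq (GRCr8), another assembly than the authors'.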

Additional observations from a re-analysis of the deposited data

How the results depend on the processing

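The count of members called was 0 under every filter, normalization and test run, including no fold change threshold, the replicate block and leaving out each rat. Of all tested miRNAs, 3.49% were called in the main fit and 3.92% with no fold change threshold. For the other settings that share is not given here, so their counts of 0 are a description. The order of the 7 members was the same by the median as by the mean. Values near 0 changed sign. For miR-30c-5p the log2 fold change was -0.0078 with RLE and with DESeq2. For the members' share, the log2 difference of -0.01 became 0.0013 without the 10 most abundant miRNAs in the denominator and 0.0032 with TMM sizes. Leaving out each rat gave log2 fold changes from -0.12 to 0.066 for miR-30a-3p, from -0.041 to 0.032 for miR-30c-5p, from -0.16 to 0.014 for miR-30d-5p from -0.041 to 0.26 for miR-30e-5p, from 0.0033 to 0.33 for miR-30a-5p, from 0.072 to 0.36 for miR-30d-3p, from -0.072 to -0.027 for miR-30e-3p, from -0.28 to -0.092 for miR-30c-2-3p and from 0.046 to 0.31 for miR-384-5p. It gave log2 differences from -0.083 to 0.064 for the members' share, where leaving out BCP rat 1 or sham-operated rat 3 turned the sign, from -0.052 to 0.44 for the ratio of the miR-30a arms (sham-operated rat 2), from 0.021 to 0.32 for that of the miR-30e arms, from 0.052 to 0.32 for miR-30a-5p to miR-30c-5p and from -0.053 to 0.25 for miR-30e-5p to miR-30c-5p (BCP rat 3 or sham-operated rat 1). The causes were not tested. The ratio of the miR-30d arms stayed between -0.39 and -0.22. Same-numbered rats shared only a number, with correlations of their deviations of 0.109, -0.452 and 0.711 for numbers 1, 2 and 3. The replicate block called 0 members and left each ratio's difference as it was, and BCP rat 1 correlated best with sham-operated rat 2. Depth limits miR-30d-3p most. The comparison of miR-30d-5p with miR-30b-5p was not run.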
